A study of Mus musculus with 137 samples.

Results

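At 56 days after bleomycin, 4 lungs of young mice were set against 5 lungs taken 56 days after saline, which makes 9 lungs of a series with 60 young and 77 old ones. All came from male C57BL/6J mice in the young age class of 8 to 12 weeks, with no genetic change named in the labels. Bleomycin at 0.7 mg/kg, or saline alone, was placed into the trachea, and the lungs were chosen by these labels and not by any measured value. Poly-A RNA of whole lung tissue was sequenced as 1 library per lung, and the values are read counts per gene. Further lungs of the series serve as reference points: the 5 bleomycin and 5 saline lungs of young mice at day 42 and again at day 14, the 6 bleomycin and 11 saline lungs of old mice (21 months, 0.63 mg/kg) at day 56, and 4 untreated lungs of young mice at day 0. Young lungs of day 21 (4 bleomycin, 5 saline), day 28 (5 and 5) and day 35 (4 and 4) enter the course over days. Their saline lungs also serve as further controls. Age and dose changed together between the young and old mice. The series follows how an injured lung resolves its fibrosis, and day 56 is the last day sampled.

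Bleomycin breaks DNA strands and kills alveolar epithelium, after which monocytes enter the lung and become macrophages, and fibroblasts lay down collagen. In young mice the scar is known to recede over weeks: macrophages take up collagen fragments, dead cells and surfactant lipid and digest them in lysosomes, and alveolar epithelium and capillaries are rebuilt. Macrophages loaded with lipid carry a programme that includes Trem2, Gpnmb, Spp1 and Lgals3, while plasma cells, which secrete antibody, can persist in tissue for a long time after an injury.

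The 9 libraries held 17813587 to 31019168 assigned reads. All 9 lungs carried the alveolar type 2 surfactant gene Sftpc at 13671 to 23945 CPM (counts-per-million of reads) and the type 1 cell gene Ager at 1647 to 2599 CPM. The 4 bleomycin lungs were not alike in degree. Over the genes called in the comparison, the median rise above the mean of the saline lungs was 0.38 log2 units in bleomycin replicate 1, against 0.53, 0.63 and 0.67 in replicates 2, 3 and 4, so replicate 1 was the mildest. One untreated lung also stood apart. Untreated replicate 3 held Mmp12 at 349 CPM, against 5.55 to 6.55 CPM in the other 3 untreated lungs, and Jchain at 268 CPM against 12.8 to 41.2 CPM. Counts and summed levels in untreated lungs are therefore given with and without it, and the bleomycin against saline comparison does not use it.

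Of 18396 genes tested with the edgeR quasi-likelihood F test, 2982 (16.2%) had a Benjamini-Hochberg adjusted p under 0.05. Of these, 1456 rose (7.91% of genes tested) and 1526 fell (8.3%). Most changes were small: 393 genes rose and 287 fell by at least 2-fold, and 165 rose and 32 fell by at least 4-fold. The median called rise was 0.58 and the median called fall −0.55 on the log2 scale, while the median over all genes tested was −0.02. In 3142 genes (17.1%) the 4 bleomycin and 5 saline lungs did not overlap, with bleomycin higher in 1590 (8.64%) and lower in 1552 (8.44%), and 2120 of those were also called. Leaving out bleomycin replicate 3 gave 1724 calls, and leaving out replicate 4 gave 1818. Log2 fold changes below are bleomycin over saline with their standard error, p-values are adjusted in this way over all genes tested, and "rose" and "fell" are used only of called genes. The standard errors rest on a spread estimated over all lungs of the series, and with the 2 day 56 groups fitted alone 3390 genes were called. Each gene so named kept its call when any 1 of the 9 lungs was left out, except where the paragraph says otherwise. In bulk tissue fewer cells of a type and less RNA per cell cannot be told apart.

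**Figure D1:**
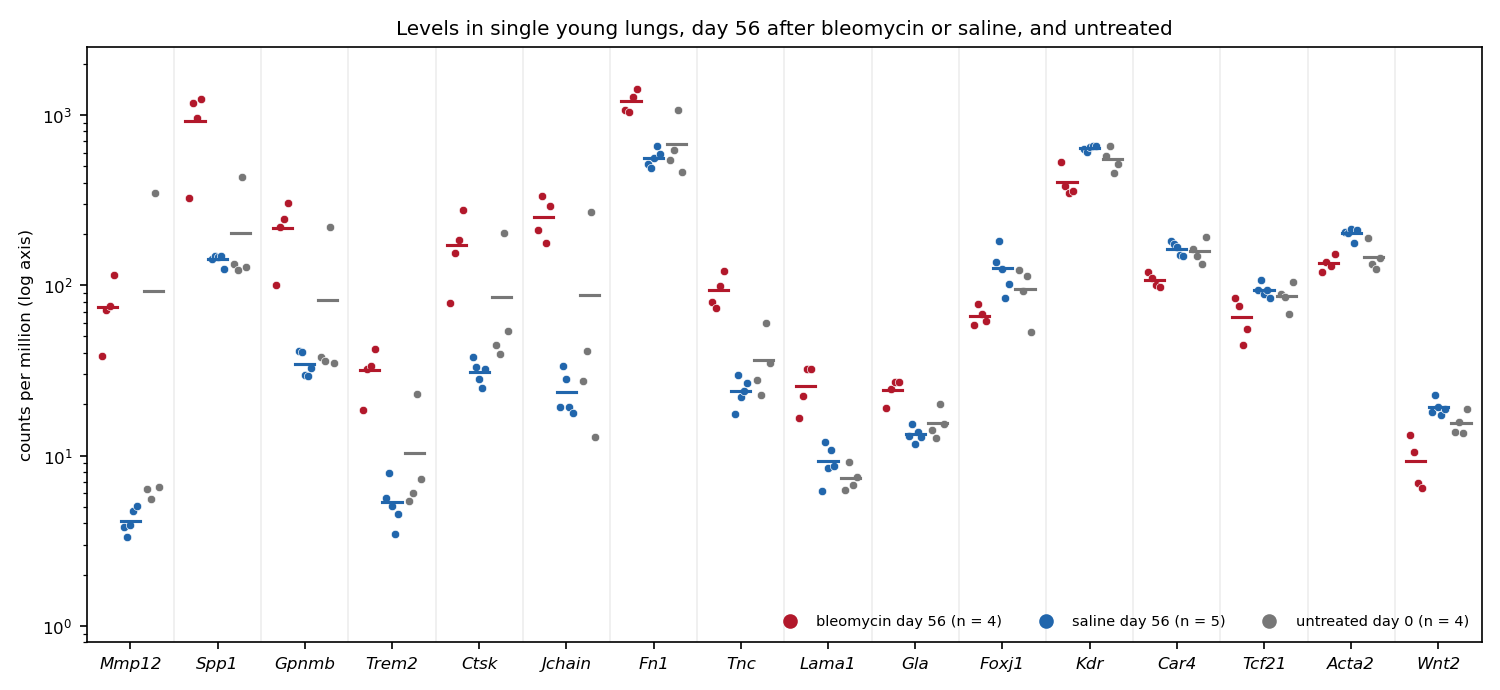
CPM on a log axis of 16 genes in each of the 4 bleomycin lungs (red) and 5 saline lungs (blue) of day 56 and in 4 untreated lungs (grey), with 1 dot per lung and a bar at each group mean. Mmp12 sits at 38.3 to 114.7 CPM in the bleomycin lungs and at 3.30 to 5.03 CPM in the saline lungs, and 1 untreated lung lies far above the other 3 in the macrophage genes on the left.

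Genes of macrophages that digest debris and lipid rose after bleomycin. Of 17 genes of lipid-laden and scar-associated macrophages, 14 rose and 1, the fatty acid receptor Cd36, fell (median 0.72). Of 16 genes of monocyte-derived macrophages, 9 rose and none fell (median 0.75), or 14 with the day 56 groups fitted alone, and of 18 matrix proteases and cathepsins 9 rose and 1 fell (median 0.83). The first count stayed at 14 under every alternative run, and the Cd36 call (−0.42) was lost without bleomycin replicate 3 (−0.22). The summed level of the lipid-laden list was 4759 to 7066 CPM in bleomycin lungs, 3729 to 4203 CPM in saline lungs of day 56 and 3216 to 4139 CPM in the 24 young saline lungs of the earlier days.

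Mmp12 (ENSMUSG00000049723, GRCm38 chr9:7344381-7369499), the macrophage elastase, stood at 38.3, 71.5, 75.1 and 114.7 CPM in bleomycin lungs, against 3.81, 3.30, 3.89, 4.71 and 5.03 CPM in saline lungs. The groups were far apart, and even the mildest bleomycin lung stood well above the highest saline lung. The rise was 4.18 ± 0.53 (adjusted p = 3.11e-09), an 18.1-fold difference. Gpnmb (ENSMUSG00000029816, chr6:49036546-49070929), a glycoprotein of lysosome-rich phagocytes, was at 100.2, 219, 246 and 306 CPM against 41.3, 40.6, 29.5, 29.2 and 32.8 CPM (2.65 ± 0.32, adjusted p = 6.17e-10). Trem2 (ENSMUSG00000023992, chr17:48346401-48354147), the lipid-sensing receptor of these cells, was at 18.5, 32.4, 33.7 and 42.2 CPM against 5.66, 7.89, 5.02, 3.47 and 4.53 CPM (2.56 ± 0.28, adjusted p = 1.15e-11). In both genes the groups were separate and replicate 1 was the lowest bleomycin lung. The secreted phosphoprotein Spp1 reached 326, 1175, 964 and 1235 CPM in bleomycin lungs and lay at 141.98, 147.9, 146.9, 148.2 and 124.8 CPM in saline lungs (2.70 ± 0.38), with no overlap, and replicate 1 was again the lowest of the bleomycin lungs.

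The collagen-cleaving cathepsin Ctsk (ENSMUSG00000028111, chr3:95499256-95509362), known best from bone-resorbing osteoclasts, was at 78.6, 155, 184 and 275 CPM in bleomycin lungs against 37.8, 33.05, 28.0, 24.8 and 32.01 CPM in saline lungs (2.48 ± 0.31, adjusted p = 2.07e-09). Of 14 osteoclast-type genes, Ctsk included, 6 rose, 1 fell and 7 were not called. The acid phosphatase Acp5 rose by 2.09 ± 0.30, the proton pump subunit Atp6v0d2 by 1.76 ± 0.20 and the receptor Tnfrsf11a by 0.78 ± 0.15. The gelatinase Mmp9 was the exception in both lists and fell (−1.26 ± 0.37). Mmp9 is abundant in neutrophils, and its call was lost without saline replicate 4 (−0.90), the saline lung with the highest level, or without bleomycin replicate 4 (−1.14). Among the other proteases Mmp19 rose by 1.81 ± 0.25 and the lysosomal aspartic protease Ctsd by 1.58 ± 0.22.

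Genes of resident alveolar macrophages, the cells that clear surfactant from the air space, split in both directions: 7 of 14 rose and 5 fell. With the handling covariate, a score of immediate early genes in each lung, 3 fell. The oxidised lipid receptor Olr1 rose by 1.56 ± 0.19, the integrin Itgax by 1.23 ± 0.16, the mannose receptor Mrc1 by 0.99 ± 0.17 and Plet1 by 0.87 ± 0.15. Siglecf, the lectin by which these cells are usually sorted, fell to 15.5, 10.3, 13.4 and 12.3 CPM in bleomycin lungs against 20.2, 19.4, 17.96, 18.4 and 20.2 CPM in saline lungs (−0.58 ± 0.16, adjusted p = 0.00581). The keratin Krt79, another gene typical of resident cells, was at 10.45, 4.77, 7.62 and 4.88 CPM against 28.8, 33.7, 23.2, 20.9 and 23.95 CPM (−1.91 ± 0.41, adjusted p = 0.000387). Neither gene overlapped between groups. The carbonic anhydrase Car4, which is on this list, is better known from capillaries and is described with them. Of 12 genes of interstitial macrophages 1 rose and 1 fell (4 with the groups alone), shares near the 7.91% and 8.3% over all genes tested. The rise was Mrc1, already counted above, and the fall was Cbr2, which is also on the club cell list. The count of falls was as low as 0 with 1 lung left out.

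Lysosomal genes rose broadly but by less. Of 20 genes of the lysosome and the vacuolar ATPase, the pump that acidifies it, 16 rose and none fell (median 0.42), with 14 to 17 called under the alternatives. The largest rise was in the transcription factor Tfec (1.14 ± 0.21), a relative of TFEB and MITF that is enriched in macrophages. The alpha-galactosidase gene Gla (ENSMUSG00000031266, chrX:134588149-134601125) was at 19.1, 24.4, 26.9 and 27.1 CPM in bleomycin lungs against 13.1, 15.3, 11.6, 13.7 and 12.8 CPM in saline lungs (0.87 ± 0.14, adjusted p = 7.78e-07). The membrane protein Lamp1 (ENSMUSG00000031447, chr8:13159161-13175338) differed little, at 784, 868, 848 and 904 CPM against 733, 704, 709.8, 706 and 705 CPM, yet without overlap (0.26 ± 0.07, adjusted p = 0.0047). The lysosomal calcium channel Mcoln1 (ENSMUSG00000004567, chr8:3500457-3515232) was not called, at 54.3, 51.1, 50.3 and 56.3 CPM against 52.03, 56.3, 61.6, 59.4 and 55.8 CPM (−0.11 ± 0.05, adjusted p = 0.185). Atp6ap1, Atp6v1h and Tfeb were the other members not called.

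TFEB and its relatives are known to bind the CLEAR element, whose core is TCACGTG. The promoter windows of these 3 lysosomal genes are shown because Gla and Lamp1 rose while Mcoln1, with the same letters, did not. The Gpnmb window is shown because that gene holds the other motif searched, TGANTCA, the AP-1 site. Each window runs from 250 bases before the RefSeq start (GRCm38.p6) through the first 20 bases of the transcript, 5′ to 3′ on the gene's strand, with the motif in capitals on whichever strand it was found. The genes shown were chosen after their values and letters were seen. Gla is on the minus strand (chrX:134600986-134601255), Lamp1 (chr8:13158911-13159180), Mcoln1 (chr8:3500269-3500538) and Gpnmb (chr6:49036268-49036537) on the plus strand.
Gla: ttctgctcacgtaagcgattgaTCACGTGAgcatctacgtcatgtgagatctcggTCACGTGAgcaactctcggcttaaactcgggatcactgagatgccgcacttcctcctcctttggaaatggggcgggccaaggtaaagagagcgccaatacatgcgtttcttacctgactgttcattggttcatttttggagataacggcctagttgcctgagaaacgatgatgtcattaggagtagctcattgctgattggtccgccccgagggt
Lamp1: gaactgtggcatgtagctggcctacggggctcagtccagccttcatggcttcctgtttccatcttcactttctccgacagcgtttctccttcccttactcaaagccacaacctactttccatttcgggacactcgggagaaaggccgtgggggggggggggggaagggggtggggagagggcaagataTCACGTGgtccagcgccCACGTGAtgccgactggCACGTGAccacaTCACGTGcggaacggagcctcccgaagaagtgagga
Mcoln1: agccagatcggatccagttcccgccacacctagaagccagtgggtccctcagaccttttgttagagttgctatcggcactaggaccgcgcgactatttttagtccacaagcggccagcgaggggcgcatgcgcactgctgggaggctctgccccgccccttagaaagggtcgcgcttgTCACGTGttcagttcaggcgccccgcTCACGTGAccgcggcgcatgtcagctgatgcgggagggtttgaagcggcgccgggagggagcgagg
Gpnmb: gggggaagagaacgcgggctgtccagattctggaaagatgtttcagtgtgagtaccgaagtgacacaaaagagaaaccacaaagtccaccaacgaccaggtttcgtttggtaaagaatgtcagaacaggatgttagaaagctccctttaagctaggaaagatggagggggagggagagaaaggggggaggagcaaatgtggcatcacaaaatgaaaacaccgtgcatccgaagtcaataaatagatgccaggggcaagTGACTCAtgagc
The capitals mark 2 separate stretches in Gla, 4 in Lamp1, 2 in Mcoln1 and 1 in Gpnmb. Where TCACGTGA is in capitals the core matched on both strands and the matches overlap. TCACGTG on either strand was in the window (250 bases before to 50 after the start) of 6 of the 14 lysosome-list genes with a RefSeq window, which were Atp6v0d1, Atp6v1a, Ctsa, Gla, Lamp1 and Mcoln1. It was in 801 of the 12878 tested genes with a window (6.22%) and in 1237 of all 32851 windows (3.77%). Among list members that rose, 5 of 11 held it, and among those not called 1 of 3. TGANTCA, which reads the same on both strands, was in 1 of 13 lipid-laden genes (7.69%), 3 of 10 monocyte-derived macrophage genes (Cd68, Ms4a7 and Trem2), 3 of 12 matrix proteases and cathepsins (Mmp12, Mmp13 and Mmp3), 1 of 14 lysosome genes (Neu1) and 0 of 7 osteoclast-type genes. Over the 12878 tested genes it was in 894 (6.94%), and over all windows in 2565 (7.81%). TCACGTG was in 2 of the 13, 0 of the 10, 1 of the 12 and 0 of the 7. A match describes letters and is not evidence of a bound site.

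Antibody genes rose as well, some of them by large factors. Of 20 plasma cell genes 10 rose and none fell (median 1.41). The 10 not called were Eaf2, Ighg3, Iglc2, Irf4, Mzb1, Pim2, Prdm1, Tnfrsf17, Txndc5 and Xbp1, so the list did not rise as a whole. Of 181 immunoglobulin variable segments 87 rose and none fell, with a median of 2.96. Many segments closely resemble others in sequence and the rule for reads that map to several was not given, so single segments are uncertain. Jchain (ENSMUSG00000067149, chr5:88519809-88527891), which joins IgA and IgM into polymers, was at 211, 333, 176 and 291 CPM in bleomycin lungs against 19.3, 33.4, 28.1, 19.2 and 17.9 CPM in saline lungs (3.42 ± 0.63, adjusted p = 3.56e-05). The kappa constant region Igkc was at 646, 955, 613 and 901 CPM against 79.1, 101.8, 127.3, 75.4 and 70.5 CPM (3.10 ± 0.61, adjusted p = 9.11e-05). In both genes each bleomycin lung, the mild replicate 1 included, stood far above the highest saline lung.

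Isotypes differed from lung to lung within the bleomycin group. The IgG2c heavy chain Ighg2c was at 16.6, 45.04, 129.3 and 71.2 CPM in bleomycin lungs against 0.784, 0.91, 0.853, 1.33 and 0.543 CPM in saline lungs (6.203 ± 1.33, adjusted p = 0.000389). Ighg2b rose by 4.97 ± 0.95 and the IgA chain Igha by 3.31 ± 0.75. Ighg1 was at 4.23, 11.6, 35.0 and 182 CPM against 0.728, 0.405, 0.0948, 0.523 and 6.97 CPM, so the groups overlapped. Its rise of 5.06 ± 1.204 was lost without bleomycin replicate 4 (3.29, adjusted p = 0.0649). None of 12 B cell genes was called (median −0.48), but 6 were lower against all young saline lungs (median −0.93) and 2 with the day 56 groups fitted alone, and the receptor chain Cd79a was at 8.12, 10.8, 5.82 and 9.77 CPM against 9.30, 9.34, 17.6, 9.36 and 11.5 CPM. The summed level of the plasma cell list was 2848 to 4095 CPM in bleomycin lungs, 1007 to 1274 CPM in saline lungs and 932 to 1617 CPM in saline lungs of the earlier days.

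**Figure D2:**
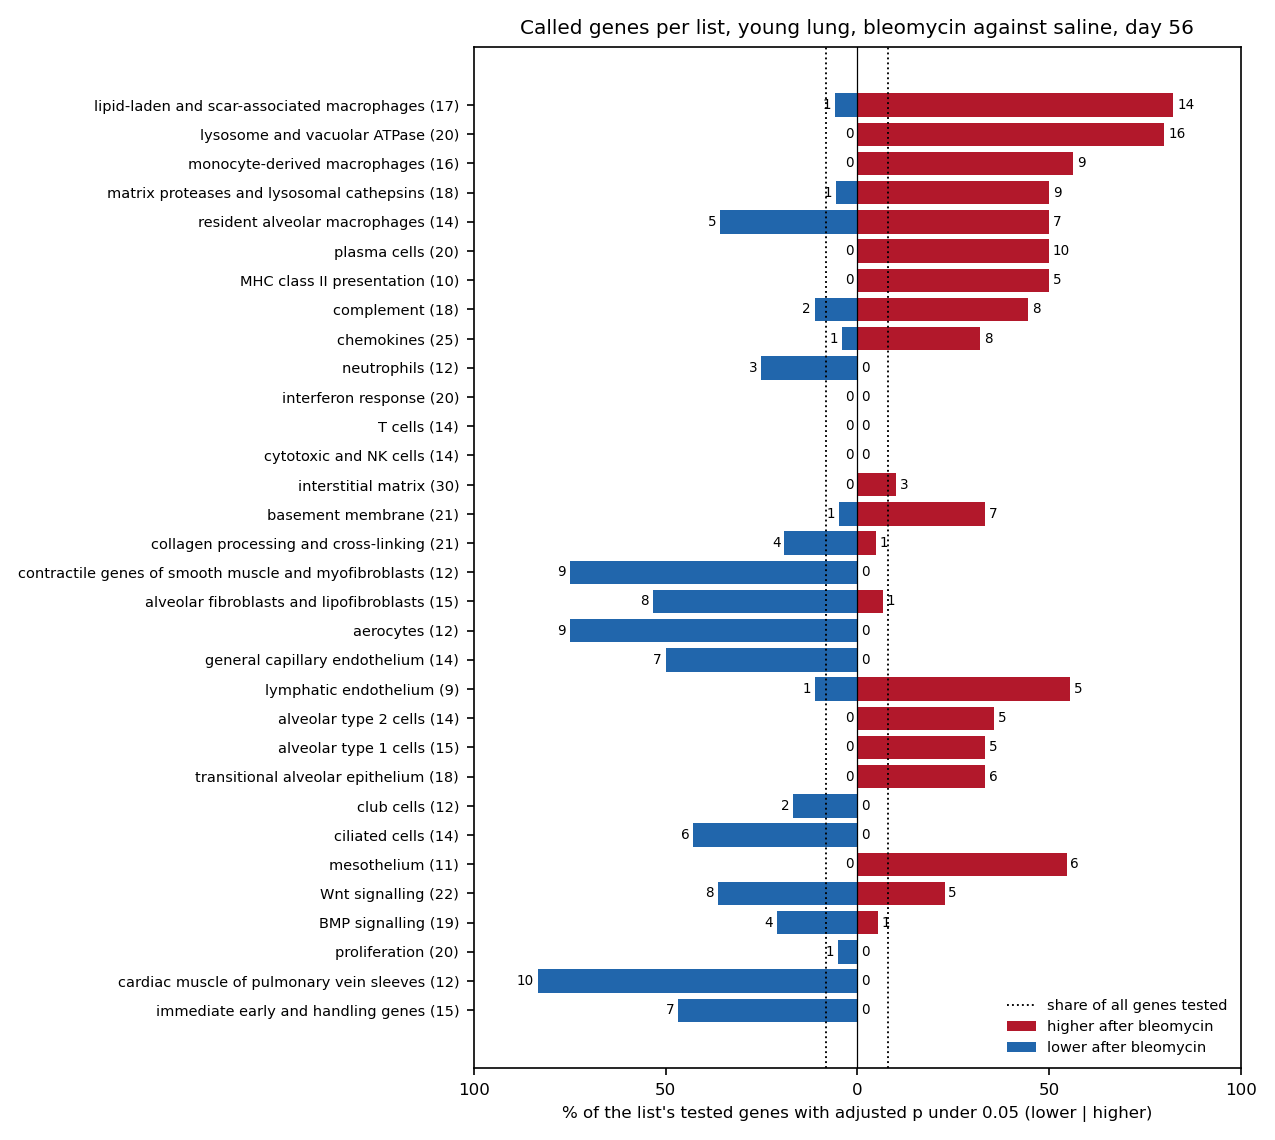
Share of the tested genes of 32 lists that rose (red, to the right) and fell (blue, to the left) at day 56 by the edgeR test, with dotted lines at the shares over all genes tested, 7.91% and 8.3%. The bars of the lipid-laden macrophage list (14 of 17) and of the lysosome list (16 of 20) reach far to the right of the line, and those of cardiac, contractile and aerocyte genes far to the left.

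Other immune groups changed in part. Of 10 genes of MHC class II presentation 5 rose and none fell (median 0.52), with H2-Aa at 0.59 ± 0.15 and the peptide exchanger H2-DMb1 at 0.67 ± 0.14. That count was 2 without bleomycin replicate 3 or 4. The mean log2 CPM of this list stood 0.08 to 0.64 above the saline mean in bleomycin lungs. In untreated lungs it stood 0.11 to 0.57 above it (0.11 to 0.42 without untreated replicate 3), within the bleomycin range. Of 25 chemokines 8 rose and 1 fell, with 4 rising without bleomycin replicate 3 and 5 without bleomycin replicate 4 or saline replicate 1 or with no filter, and 13 against all young saline lungs. Ccl6, made by macrophages, was at 346, 553, 642 and 737 CPM in bleomycin lungs against 169, 162, 159.6, 150.1 and 155 CPM in saline lungs (1.84 ± 0.22, adjusted p = 4.53e-10). Ccl9 rose by 1.28 ± 0.30, and the membrane-bound fractalkine Cx3cl1 fell (−0.51 ± 0.10). Of 18 complement genes 8 rose and 2 fell (0 with the handling covariate), including the C1q chain C1qb at 1.01 ± 0.24 and the receptor C3ar1 at 1.46 ± 0.26.

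No gene of 14 for T cells (median −0.14), of 14 for cytotoxic and natural killer cells (median −0.61) or of 20 for the interferon response (median −0.07) was called. With the day 56 groups fitted alone, 6 cytotoxic and natural killer genes were lower and 3 interferon genes lower and 2 higher, and against all young saline lungs 4 cytotoxic and natural killer genes were lower. In the interferon list Isg15 was at 12.3, 15.5, 13.7 and 14.7 CPM in bleomycin lungs against 12.5, 19.6, 13.9, 15.9 and 12.6 CPM in saline lungs. The checkpoint receptor Havcr2, also found on macrophages and dendritic cells, rose by 0.89 ± 0.18. The regulatory T cell factor Foxp3 was not called (1.10 ± 0.41, adjusted p = 0.051), but was without saline replicate 3 (1.497), bleomycin replicate 1 (1.22) or bleomycin replicate 2 (1.26). Of 12 neutrophil genes 3 fell and none rose (median −0.72): Mmp9, the cytokine receptor Csf3r (−1.04 ± 0.38) and Retnlg (−1.14 ± 0.42). Saline replicate 4 was the highest lung in both, and without it (Csf3r −0.55, Retnlg −0.87) or without bleomycin replicate 4 (−0.97 and −0.94) no neutrophil gene was called. The calls of both were also lost without bleomycin replicate 1 or 2 or saline replicate 3, and that of Retnlg without saline replicate 1 or 2. The count was 1 with no filter, with the 2 groups alone and with either covariate. Of 11 tested genes of mast cells, basophils, eosinophils and type 2 innate lymphoid cells 1 rose and 1 fell (median −0.22). These shares were near the 7.91% and 8.3% over all genes tested. The fall was in Siglecf, described above with alveolar macrophages and also on this list. The rise was in the eosinophil granule gene Prg2, which was low, at 1.33, 2.41, 1.57 and 2.30 CPM in bleomycin lungs against 0.112, 0.371, 0.237, 0.0951 and 0.0453 CPM in saline lungs (3.34 ± 0.71, adjusted p = 0.000333). Only 1 of 20 proliferation genes was called, the mitotic checkpoint kinase Bub1 (−0.71 ± 0.21), which lost its call without bleomycin replicate 4 (−0.61), and Mki67 was at 0.43 ± 0.47.

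Of 30 genes of the interstitial matrix 3 rose, a share near the 7.91% over all genes tested, and none fell (median 0.11), against 25 rising at day 14 (median 1.28), where 20.1% of all genes tested rose and 19% fell. Without bleomycin replicate 3 or 4 the count at day 56 was 1, and without saline replicate 1 it was 2. With the day 56 groups alone or against all young saline lungs it was 6. Col1a1 lay at 548, 424, 522 and 645 CPM in bleomycin lungs and at 442, 712, 479, 475 and 478 CPM in saline lungs. The 3 that rose were tenascin, fibronectin and the fibril-associated collagen Col14a1 (0.41 ± 0.13), whose call was lost without bleomycin replicate 3 (0.39) or 4 (0.40) or saline replicate 1 (0.38). Tenascin Tnc (ENSMUSG00000028364, chr4:63959785-64047015) was at 79.6, 73.1, 98.2 and 121.5 CPM against 17.6, 29.6, 22.1, 23.8 and 26.7 CPM (1.95 ± 0.44, adjusted p = 0.000752). Fibronectin Fn1 (ENSMUSG00000026193, chr1:71585520-71653200) was at 1060.5, 1040.3, 1269 and 1420.4 CPM against 515, 485, 559.7, 652 and 593 CPM (1.09 ± 0.35, adjusted p = 0.0207). Every bleomycin lung lay above every saline lung in both genes, but the Fn1 call was lost without bleomycin replicate 3 (1.06, adjusted p = 0.0566) or replicate 4 (1.01, adjusted p = 0.0698).

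Basement membrane genes rose in 7 of 21 cases and fell in 1 (median 0.21). The laminin chain Lama1 (ENSMUSG00000032796, chr17:67697259-67822647), known mainly from the embryo, was at 16.6, 22.3, 32.1 and 32.04 CPM in bleomycin lungs against 6.22, 12.1, 8.44, 10.8 and 8.74 CPM in saline lungs (1.47 ± 0.35, adjusted p = 0.00163). The laminin chains Lama3 (0.93 ± 0.22) and Lamb3 (0.63 ± 0.13), found in epithelial basement membrane, rose as well, and the alveolar collagen IV chain Col4a4 rose by 0.64 ± 0.15. Collagen processing and cross-linking genes, 21 in number, had 1 rise and 4 falls. The prolyl hydroxylase subunit P4ha3 was the one that rose, at 3.17, 4.21, 7.07 and 7.57 CPM against 1.46, 1.48, 1.66, 1.47 and 1.22 CPM (1.91 ± 0.52, adjusted p = 0.00538). The 4 falls became 0 without bleomycin replicate 3 or 4, 1 without saline replicate 1, 2 or 4, and 2 without saline replicate 3, and 0 with no filter or the handling covariate. Among 14 ligands and targets of TGF-beta, 2 were higher (7 against all young saline lungs, 4 with the groups alone) and 2 lower (0 with the handling covariate) by the test, with the ligand Tgfb2 at 0.52 ± 0.13.

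Genes of the quiescent alveolar fibroblast fell. Of 15 genes of alveolar fibroblasts and lipofibroblasts 8 fell and 1 rose (median −0.42), and 5 fell without bleomycin replicate 3. The one that rose was the lipid droplet gene Plin2 (0.68 ± 0.14), which macrophages also use. The amino acid transporter Slc7a10 (ENSMUSG00000030495, chr7:35186385-35201114) was at 26.6, 13.4, 8.41 and 8.18 CPM in bleomycin lungs against 55.3, 60.2, 64.7, 49.8 and 53.4 CPM in saline lungs (−2.01 ± 0.43, adjusted p = 0.000347). The growth factor Wnt2, by which these fibroblasts signal to epithelium, was at 13.2, 10.47, 6.88 and 6.42 CPM against 18.03, 22.7, 19.4, 17.3 and 18.9 CPM (−1.06 ± 0.19, adjusted p = 2.18e-05). In both genes no lungs overlapped and replicate 1 was closest to saline. The fibroblast factor Tcf21 fell by less, at 83.7, 75.4, 44.8 and 55.5 CPM against 93.5, 106.9, 88.3, 93.6 and 83.7 CPM (−0.52 ± 0.17, adjusted p = 0.0247). Its call was lost without bleomycin replicate 3 (−0.38), bleomycin replicate 4 (−0.45) or saline replicate 2 (−0.47).

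Of 14 genes of adventitial and inflammatory fibroblasts 4 rose and 1 fell, with 7 rising with the groups alone or against all young saline lungs. The acute-phase gene Saa3 was at 6.51, 14.6, 17.8 and 26.1 CPM in bleomycin lungs against 1.74, 2.77, 1.85, 1.14 and 1.22 CPM in saline lungs (3.19 ± 0.64, adjusted p = 0.000157). The iron-scavenging lipocalin Lcn2 was at 259.9, 381, 446 and 526 CPM against 105.4, 125.4, 91.8, 87.1 and 94.3 CPM (2.0 ± 0.30, adjusted p = 3.34e-07). Both are also made by epithelium and macrophages. The secreted Wnt inhibitor Sfrp1 rose by 1.21 ± 0.32, while Pi16, a marker of resting adventitial fibroblasts, fell (−1.01 ± 0.22).

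Contractile genes of smooth muscle and myofibroblasts fell in 9 of 12 cases and rose in none (median −0.57), where 8.3% of all genes tested fell. At day 14, 3 of 12 fell and none rose, where 19% of all genes tested fell. Calponin Cnn1 (ENSMUSG00000001349, chr9:22099216-22109630) was at 15.8, 24.6, 16.4 and 18.9 CPM in bleomycin lungs against 47.8, 43.1, 54.9, 34.03 and 47.04 CPM in saline lungs (−1.26 ± 0.25, adjusted p = 0.000143). The smooth muscle actin Acta2 was at 119.4, 136.7, 129.05 and 151 CPM against 205, 202, 213, 176 and 210.2 CPM (−0.58 ± 0.20, adjusted p = 0.0338), and myosin Myh11 fell by 0.70 ± 0.18 on the log2 scale. The groups were separate in these genes. The Acta2 call was close to the threshold and was lost when any lung other than saline replicate 4 was left out (−0.53 to −0.64). The count was 5 without bleomycin replicate 3 and 7 when all young saline lungs served as the control. Summed levels were 704 to 819 CPM in bleomycin lungs, 1019 to 1290 CPM in saline lungs of day 56, 800 to 1206 CPM in saline lungs of earlier days and 755 to 1087 CPM in untreated lungs (824 to 1087 CPM without untreated replicate 3). The saline lungs of day 56 were thus in the upper part of the range of control lungs.

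Capillary genes fell, most completely those of aerocytes, the large capillary cells specialised for gas exchange. Of 12 aerocyte genes 9 fell and none rose (median −0.62), and of 14 genes of general capillary cells 7 fell and none rose (median −0.36). The second count was 3 without bleomycin replicate 3 or 4. Fibin (ENSMUSG00000074971, chr2:110360917-110363183), a secreted protein of aerocytes, was at 46.1, 35.7, 27.02 and 20.6 CPM in bleomycin lungs against 71.4, 81.7, 71.7, 65.2 and 62.3 CPM in saline lungs (−1.12 ± 0.23, adjusted p = 0.000151). The VEGF receptor Kdr (ENSMUSG00000062960, chr5:75932827-75978458) was at 529.5, 382, 347 and 357 CPM against 629.9, 601, 643, 659.8 and 659 CPM (−0.66 ± 0.16, adjusted p = 0.00132). Car4 was at 119.2, 110.2, 100.04 and 97.4 CPM against 181, 173, 167, 150.2 and 147.6 CPM (−0.62 ± 0.14, adjusted p = 0.0011). In each of the 3 genes the groups were separate and replicate 1 was the bleomycin lung nearest to saline. Summed aerocyte levels were 3716 to 4498 CPM in bleomycin lungs, 4817 to 5243 CPM in saline lungs and 4558 to 5188 CPM in saline lungs of the earlier days.

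Genes of larger vessels and of lymphatics were called in both directions. Of 16 genes of arterial, venous and injury endothelium 4 rose and 5 fell. The 4 rises became 2 without bleomycin replicate 3 or 4, and the 5 falls became 3 without replicate 3 or with the handling covariate. Lrg1, an angiogenic glycoprotein of injured venules, was at 153, 285, 234 and 271 CPM in bleomycin lungs against 63.7, 96.6, 58.7, 45.1 and 67.4 CPM in saline lungs (1.83 ± 0.28, adjusted p = 4.78e-07). The arterial ligand Efnb2 fell (−0.51 ± 0.13), as did the fenestral diaphragm gene Plvap (−0.74 ± 0.16). Of 9 lymphatic genes 5 rose and 1 fell (median 0.59), and the count of rises was 4 at its lowest with 1 lung left out. The member at the median, Pdpn, is also on the list of type 1 cell genes. The lymphatic master factor Prox1 was at 10.7, 9.59, 9.51 and 10.2 CPM against 5.21, 4.32, 6.11, 5.56 and 6.38 CPM (0.86 ± 0.24, adjusted p = 0.00757), and Mmrn1 rose by 0.98 ± 0.17. The hyaluronan receptor Lyve1, shared with macrophages, was not called (−0.54).

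**Figure D3:**
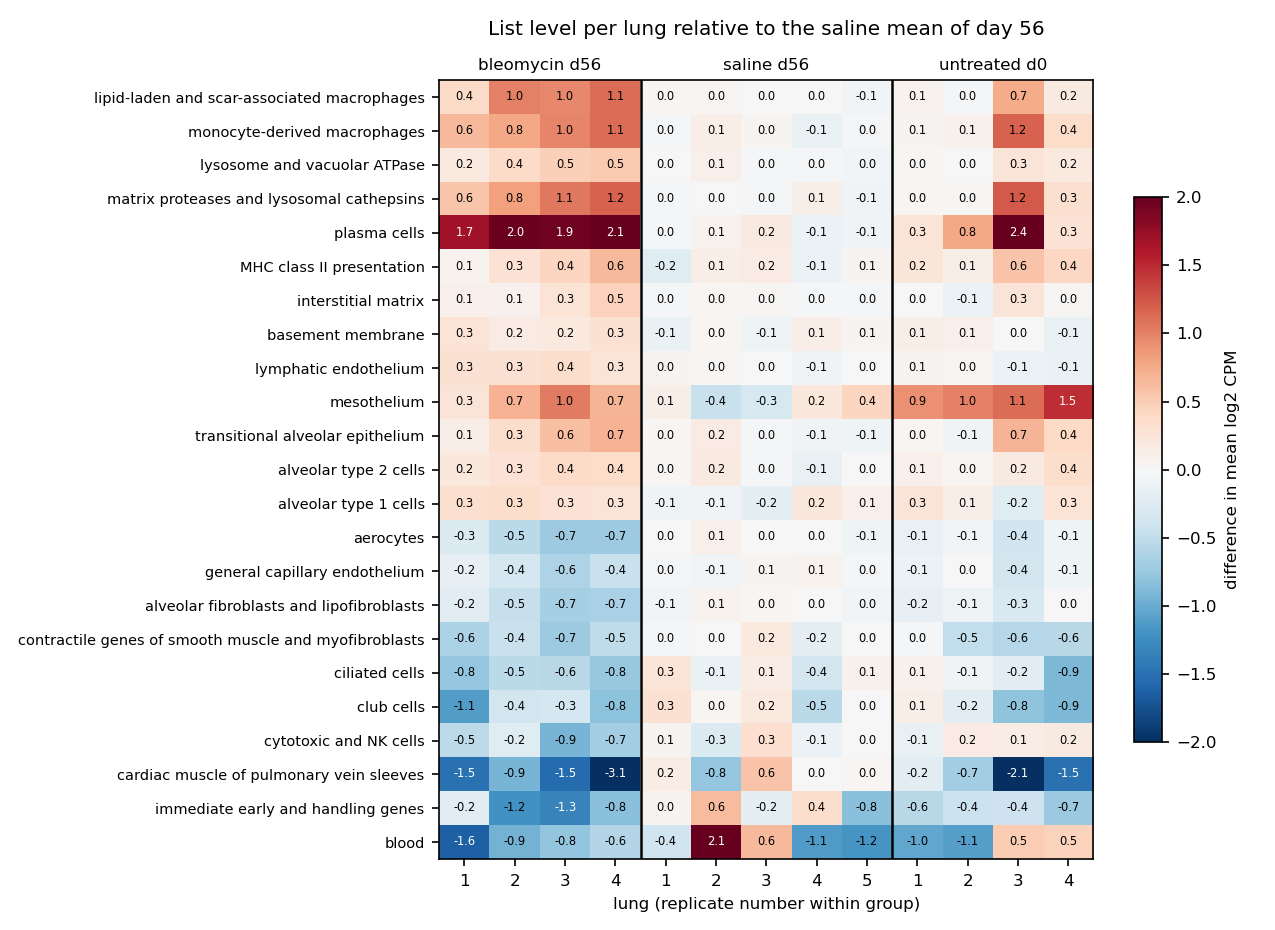
Mean log2 CPM of 23 lists in each of 13 young lungs (4 bleomycin and 5 saline lungs of day 56, then 4 untreated), drawn as the difference from the mean of the saline lungs (red higher, blue lower). Bleomycin replicate 1 is paler than the other 3 bleomycin lungs in many rows, and untreated replicate 3 shares their colour in the macrophage and plasma cell rows.

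Some airway epithelial genes fell. Of 14 ciliated cell genes 6 fell and none rose (median −0.73). That count was 3 without bleomycin replicate 1 or saline replicate 3 or with no filter, 2 without bleomycin replicate 4 or saline replicate 1, 13 with the day 56 groups fitted alone and 11 against all young saline lungs. The ciliogenesis factor Foxj1 (ENSMUSG00000034227, chr11:116330704-116335399) was at 58.7, 77.2, 67.8 and 61.4 CPM in bleomycin lungs against 136.6, 182, 124.9, 84.5 and 102.2 CPM in saline lungs (−0.93 ± 0.25, adjusted p = 0.00457). The groups did not overlap, and the saline lungs were the more spread. Summed ciliated levels were 793 to 878 CPM in bleomycin lungs, 948 to 1261 CPM in saline lungs of day 56 and 813 to 1299 CPM in saline lungs of earlier days. They were 888 to 1179 CPM in untreated lungs, with or without untreated replicate 3. In mean log2 CPM relative to the saline mean, untreated replicate 4 (−0.90) lay below every bleomycin lung (−0.53 to −0.78). Of 12 club cell genes 2 fell (median −0.63). That count was 8 against all young saline lungs or with the 2 groups alone, 0 without bleomycin replicate 1, and 1 without any 1 of the other lungs except saline replicates 4 (3) and 5 (2). The secretoglobin Scgb1a1, the chief product of club cells, was at 8190, 13548, 13699 and 10429 CPM against 20813, 16563, 20084, 13256 and 18287 CPM, which overlapped (−0.63 ± 0.24, adjusted p = 0.0567). Its call was gained without saline replicate 4 (−0.72, adjusted p = 0.0408). On the same scale the club cell list stood at −0.80 and −0.90 in untreated replicates 3 and 4, within the range of the bleomycin lungs (−0.35 to −1.12).

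Alveolar epithelial genes that were called rose, by small amounts. Of 15 type 1 cell genes 5 rose and none fell (median 0.31), and of 14 type 2 cell genes 5 rose and none fell (median 0.27). The type 1 count was 3 without bleomycin replicate 3 or saline replicate 1 or 3, and 2 without saline replicate 2, with 3 under no filter and 8 with the groups alone. The type 2 count was 3 without bleomycin replicate 2 or 4 or with the handling covariate, 2 without bleomycin replicate 3 or saline replicate 4, and 8 against all young saline lungs. The tight-junction gene Cldn18 was at 956, 1084, 1170.3 and 1168 CPM in bleomycin lungs against 579, 633, 572, 735 and 688 CPM in saline lungs (0.77 ± 0.14, adjusted p = 2.03e-05), with a clear gap between the groups. Type 1 cells cover nearly the whole gas-exchange surface, and their marker Ager was at 0.32 ± 0.16 and not called. Among type 2 genes the mucin Muc1 rose by 0.60 ± 0.13 and lysozyme Lyz2, which macrophages share, by 0.76 ± 0.19, while Sftpc was at 0.12 ± 0.21.

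Of 18 genes of the transitional state, through which type 2 cells pass on their way to type 1, 6 rose and none fell (median 0.35), or 10 against all young saline lungs. The rise with the smallest p was in Lgals3 (1.16 ± 0.19), which is also counted in the lipid-laden macrophage list. The cornified envelope gene Sprr1a rose by 2.19 ± 0.47 at a low level, 1.61, 2.57, 2.86 and 5.05 CPM in bleomycin lungs against 0.448, 0.708, 0.901, 0.618 and 0.589 CPM in saline lungs. Clusterin, Clu, rose by 0.61 ± 0.15. The state's usual keratin Krt8 was not called (0.26 ± 0.15), with 138, 148.1, 185 and 177 CPM against 137.1, 158, 132.1, 121.96 and 128.5 CPM. Krt7, Krt18, Krt19, Cldn4 and Sfn were not called either. The cell-cycle inhibitor Cdkn2a, a senescence marker, rose by 1.69 ± 0.38, at 1.06, 1.49, 2.77 and 3.29 CPM against 0.504, 0.944, 0.379, 0.856 and 0.589 CPM. In all, 4 of 16 senescence genes rose and 1 fell, with 2 rising without bleomycin replicate 3 or 4 or saline replicate 2 or with no filter and 9 against all young saline lungs, and the fall was in Igfbp3 (−1.33 ± 0.25).

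Mesothelial genes, which mark the cells covering the lung surface, rose in 6 of 11 cases (median 0.91). Bnc1 (ENSMUSG00000025105, chr7:81966672-81992292), a transcription factor of these cells, was at 5.12, 8.57, 10.9 and 7.46 CPM in bleomycin lungs against 3.58, 2.02, 2.37, 3.90 and 5.07 CPM in saline lungs (1.25 ± 0.26, adjusted p = 0.000186). Mesothelin Msln was at 60.6, 79.4, 117.9 and 109.2 CPM against 51.6, 33.8, 33.7, 50.9 and 56.0 CPM (1.02 ± 0.27). These calls rest on the saline lungs of day 56. Against all young saline lungs none of the 11 genes was called higher (median 0.17), and Bnc1 was at 0.34. The summed level was 487 to 755 CPM in bleomycin lungs, 395 to 540 CPM in saline lungs of day 56, 407 to 793 CPM in saline lungs of earlier days and 701 to 1068 CPM in untreated lungs, with or without untreated replicate 3. Without bleomycin replicate 3, or with the groups alone, the count of 6 was 3.

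Wnt genes moved in both directions, with 5 of 22 higher and 8 lower (3 higher without bleomycin replicate 4, and 5 lower without replicate 3 or with the handling covariate). The secreted inhibitors Sfrp2 and Dkk2 rose, Sfrp2 by 1.61 ± 0.31 and Dkk2 by 2.13 ± 0.58, at 1.95, 2.21, 5.31 and 8.12 CPM in bleomycin lungs against 0.952, 1.01, 1.09, 0.665 and 1.27 CPM in saline lungs. The Dkk2 call was lost without bleomycin replicate 4 (1.67), the lung with its highest level. Besides Wnt2, the ligands Wnt11 (−0.79 ± 0.16) and Wnt4 (−0.62 ± 0.13) fell. The BMP pathway inhibitor Smad6, which BMP signalling itself induces, fell (−0.91 ± 0.22), 1 of 4 falls among 19 BMP genes. That count was 2 without bleomycin replicate 2, and 1 without bleomycin replicate 3 or 4 or saline replicate 1 or 2, with no filter or with the handling covariate.

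Genes of lipid synthesis and iron storage rose in part. Of 20 genes of fatty acid synthesis and uptake 7 rose and 2 fell. The desaturase Scd1, abundant in type 2 cells, was at 3523, 5701, 4539 and 5424 CPM in bleomycin lungs against 2195, 1833, 2341, 1985 and 3336 CPM in saline lungs (1.04 ± 0.20, adjusted p = 4.94e-05), and fatty acid synthase Fasn rose by 0.61 ± 0.14. Of 17 genes of iron, haem and oxidative stress 7 rose and 1 fell. The ferritin light chain Ftl1 was at 197, 308, 305 and 338 CPM against 157, 164, 154, 144.7 and 143.4 CPM (0.91 ± 0.15, adjusted p = 1.99e-06), and haem oxygenase Hmox1 rose by 0.70 ± 0.19. The iron count was 4 without bleomycin replicate 2 or saline replicate 5, 3 without bleomycin replicate 3 or with the handling covariate, and 2 without replicate 4. No gene of 7 encoded by the mitochondrion was called, and of 18 nuclear genes of oxidative phosphorylation 1 was.

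Outside low-count genes (mean log2 CPM of 1 or less) and genes whose groups overlapped, the largest rises beyond these lists included several genes less often studied in lung. The anion exchanger Slc26a4 was at 34.03, 39.0, 51.1 and 64.7 CPM in bleomycin lungs against 6.83, 8.97, 6.26, 4.14 and 7.79 CPM in saline lungs (2.79 ± 0.36, adjusted p = 3.11e-09). The kininogen Kng2 rose by 4.17 ± 0.76 to 1.001, 6.31, 4.99 and 5.93 CPM, against 0.056, 0.27, 0.19, 0.38 and 0.317 CPM. Pianp (2.88 ± 0.32), Arnt2 (2.73 ± 0.36), the hyaluronan-degrading Cemip (2.70 ± 0.69), Megf11 (2.61 ± 0.60) and Stra6l (2.57 ± 0.33) rose as well. The largest fall under the same rule was in the helix-loop-helix factor Hes2 (ENSMUSG00000028940, chr4:152158867-152162469), at 1.45, 1.59, 1.11 and 1.04 CPM against 5.66, 5.40, 6.68, 6.32 and 7.24 CPM (−2.27 ± 0.42, adjusted p = 3.35e-05). Bex2 was at 8.40, 5.85, 6.74 and 6.26 CPM against 28.4, 34.5, 29.3, 29.9 and 30.6 CPM (−2.17 ± 0.39). For both genes all bleomycin lungs lay well below all saline lungs, and the untreated lungs, at 4.44 to 6.83 CPM of Hes2 and 21.7 to 42.9 CPM of Bex2, lay among or near the saline lungs.

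Several groups that can depend on which tissue was taken, or on how it was handled, also differed, and the reason was not tested. Genes of heart muscle, which in lung samples come from the sleeves around the pulmonary veins, fell in 10 of 12 cases (median −1.65). At day 14, 9 of the 12 fell (median −1.51), where 19% of all genes tested fell. At day 42 1 fell (median −0.34), as did 1 in old lungs of day 56 (median −0.53). The atrial myosin Myh6 was at 63.7, 66.7, 40.3 and 10.3 CPM in bleomycin lungs against 204, 124.1, 303, 189.7 and 208 CPM in saline lungs (−2.18 ± 0.64), and lost its call without bleomycin replicate 4 (−1.85). The count was 4 without that lung. Summed levels were 140.9 to 327 CPM in bleomycin lungs, 460 to 971 CPM in saline lungs of day 56, 371 to 760 CPM in saline lungs of earlier days and 201 to 597 CPM in untreated lungs (254 to 597 CPM without untreated replicate 3, the lowest of them). Immediate early genes, which respond within minutes to handling, fell in 7 of 15 cases (median −0.87). In old lungs of day 56, 6 of the 15 fell (median −0.47), where 6.04% of all genes tested fell. In young lungs 3 rose and 2 fell at day 14, and 0 were called at day 42. Immediate early genes summed to 1475 to 3910 CPM in bleomycin lungs, 2588 to 5605 CPM in saline lungs of day 56 and 1267 to 3867 CPM in saline lungs of earlier days. The count of immediate early falls at day 56 was 2 without bleomycin replicate 3 and 4 without replicate 4. It was 2 against all young saline lungs and 1 with the groups alone. With the handling covariate it was 0, but that covariate is the mean of these same genes, so the fit could hardly give another count. Red blood cell genes summed to 28.5 to 69.97 CPM in bleomycin lungs and 36.4 to 737 CPM in saline lungs, and none of 7 was called. With a handling score as covariate 2279 genes were called in all. The part of the cardiac genes in the other results was not tested.

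Whether the response had changed since day 42 was tested as a difference of the 2 bleomycin effects, each against its own saline group. No gene was called in edgeR, 1008 genes (5.48%) had an unadjusted p under 0.05, and DESeq2 called 4. These were Rnase2a, Ighe and Igkv8-34, none of them above 3.51 CPM in a day 56 lung, and Krt6a, which had too few counts for the edgeR test. The median standard error of this difference was 0.19. Mmp12 stood at 4.18 ± 0.53 at day 56 against 3.88 ± 0.52 at day 42, Trem2 at 2.56 ± 0.28 against 2.51 ± 0.27, and Jchain at 3.42 ± 0.63 against 3.64 ± 0.62. At day 42, 1401 genes were called (7.62% of those tested), of which 871 rose (4.73%) and 530 fell (2.88%). Of the genes that rose at day 56, 682 had also risen at day 42, which is 46.8% of the day 56 rises and 78.3% of the day 42 rises. Of the falls, 309 were shared, 20.2% of those at day 56 and 58.3% of those at day 42. Foxj1 was at −0.93 ± 0.25 at day 56 and −0.12 ± 0.23 at day 42, and Cnn1 at −1.26 ± 0.25 and −0.21 ± 0.23.

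Over the course 39.1% of the tested genes were called in young lungs at day 14. The share was 36.3% a week later and 29.2% at day 28. It then came to 19.7% (day 35), 7.62% (day 42) and 16.2% (day 56).

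**Figure D4:**
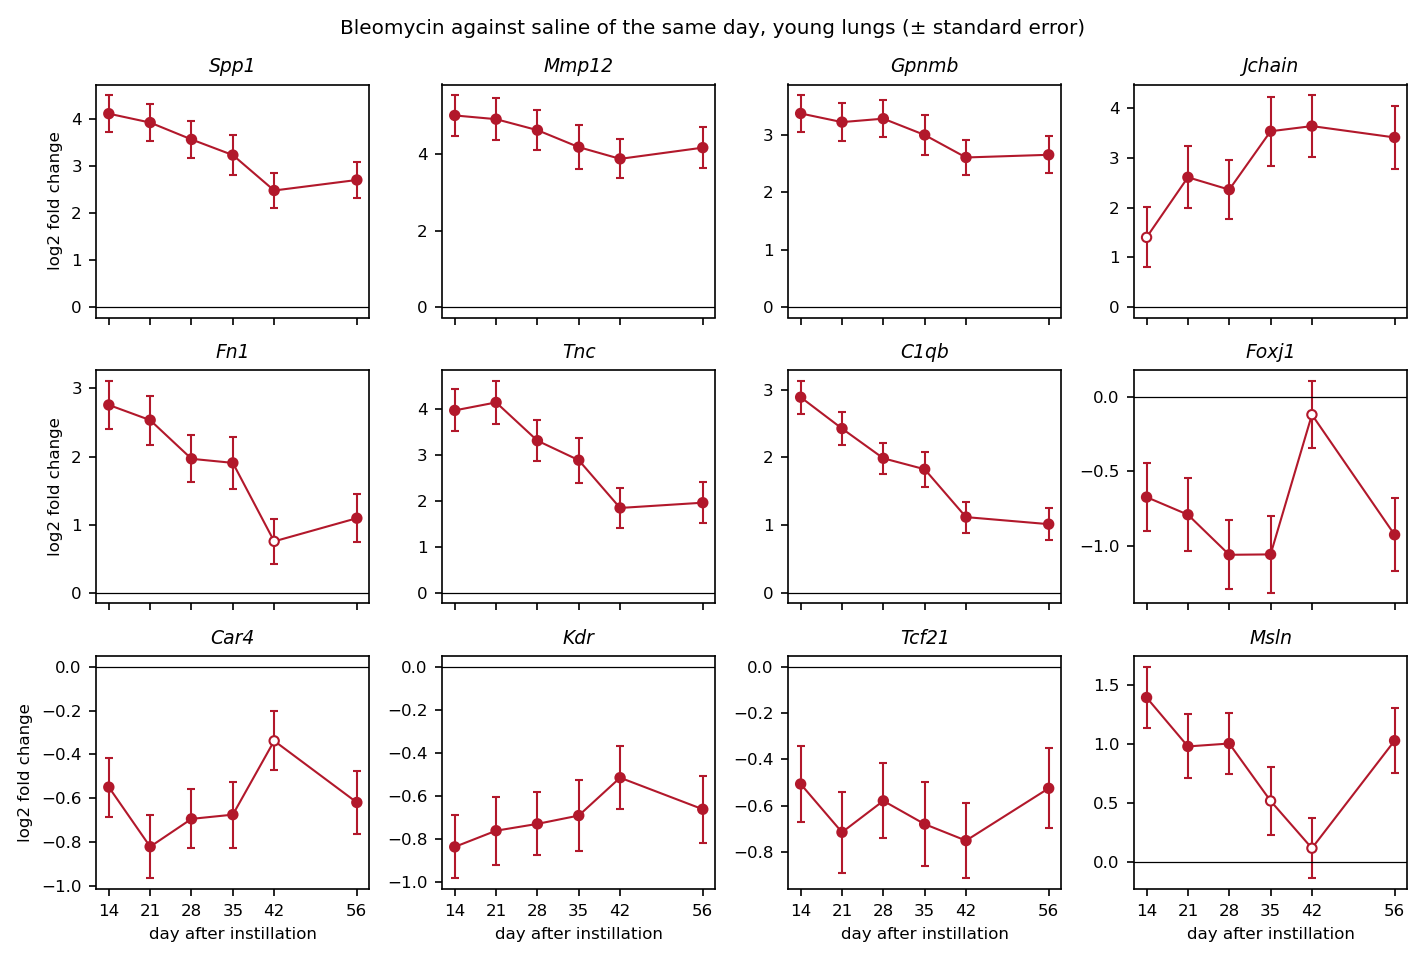
Log2 fold change of bleomycin over saline, ± standard error, of 12 genes in young lungs at days 14, 21, 28, 35, 42 and 56, each day against its own saline group and filled where called. C1qb, Tnc and Fn1 stand lower at day 56 than at day 14 by the test of the difference. Spp1, Mmp12 and Gpnmb also have lower values at day 56 (differences of −1.41, −0.85 and −0.72, none called). Jchain stands at 3.42 to 3.64 from day 35 on, and Kdr is below 0 on all 6 days.

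Against day 14, the first day sampled, the bleomycin effect differed in 830 genes (4.51% of those tested), being higher at day 56 in 251 (1.36%) and lower in 579 (3.15%). That count was 495 without bleomycin replicate 2, 496 without bleomycin replicate 3 and 409 without saline replicate 2. Of the 830 genes, 651 were not called at day 56. Another 42 rose at day 56 with a smaller effect than at day 14, among them Tnc (1.95 ± 0.44 at day 56 against 3.96 ± 0.46 at day 14), C1qb (1.01 ± 0.24 against 2.89 ± 0.24), Atg9b, an autophagy gene (1.19 ± 0.42 against 3.37 ± 0.40), and the Ras-like Rasl10b (1.03 ± 0.37 against 3.64 ± 0.37). The Tnc difference lost its call without bleomycin replicate 1 (−1.93), 2 (−1.90) or 3 (−2.03) or saline replicate 2 (−1.91). The day 56 rise of Atg9b lost its call without bleomycin replicate 2 (1.204), 3 (1.17) or 4 (1.12) or saline replicate 2 (1.17), 3 (1.21) or 5 (1.05). That of Rasl10b was lost without bleomycin replicate 2 (1.05), 3 (0.98) or 4 (0.96) or saline replicate 3 (0.99), 4 (0.99) or 5 (0.93). Of 20 proliferation genes 12 had a lower effect at day 56, and of 30 interstitial matrix genes 15. In 65 genes that rose at day 56 the effect was larger than at day 14, 12 of them immunoglobulin segments. They included the phospholipase Pla2g2d (1.11 ± 0.31 at day 56 against −0.54 ± 0.32 at day 14), the protein Z gene Proz (1.71 ± 0.29 against 0.20 ± 0.29) and Apol7c (1.09 ± 0.27 against −0.14 ± 0.25). These differences lost their call for Pla2g2d without saline replicate 2 (1.49) and for Proz without bleomycin replicate 4 (1.33). For Apol7c it was lost without bleomycin replicate 1 (1.24) or 3 (1.06) or saline replicate 1 (1.17), 2 (1.24) or 4 (1.15). Of the 830 genes, 67 fell at day 56 with a lower effect than at day 14, and 5 fell with a higher one. Among the 5 was Cpne5, which codes for a copine, a calcium-dependent membrane-binding protein. Cpne5 fell on both days and by less at day 56 (−1.09 ± 0.26 against −2.26 ± 0.25). That difference of 1.16 lost its call without bleomycin replicate 1 (0.68) or saline replicate 1 (1.15), 2 (1.15) or 3 (1.14).

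Old lungs of day 56 were compared by testing the young effect minus the old effect. No gene was called in edgeR, 1056 (5.74%) had an unadjusted p under 0.05, and DESeq2 called 3 (Cxcr1, Krt6a and Ighe). With the 4 day 56 groups fitted alone 3 genes were called, Wnt7a (0.86), Cxcr1 (1.94) and Fgf18 (0.82). Without young bleomycin replicate 1 the genes Tmem108 (1.17) and Cxcr1 (2.06) were called, and Tmem108 (1.28) without young saline replicate 5. In old lungs 2543 genes (13.8%) were called, 1432 higher (7.78%) and 1111 lower (6.04%). Of the young rises 880 were shared, 60.4% of the young and 61.5% of the old rises, and of the falls 638, 41.8% of the young and 57.4% of the old. Mmp12 stood at 4.18 ± 0.53 in young and 2.03 ± 0.35 in old lungs, Trem2 at 2.56 ± 0.28 and 1.83 ± 0.19, and Kdr at −0.66 ± 0.16 and −0.33 ± 0.12. Contractile genes fell in 9 of 12 cases in young lungs and in none in old lungs, with medians of −0.57 and −0.18, and the difference itself was called for none of them.

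Saline lungs of day 56 were set against the 4 untreated lungs to see how far apart these groups stood. The untreated lungs were taken at day 0, so their mice were younger at sampling and had no instillation. Age at sampling and instillation cannot be told apart here. In edgeR 164 genes were called (0.891%), 19 of them higher in saline lungs (0.103%) and the rest lower (0.788%). Without untreated replicate 3 the count was 50, of which 48 were lower. Without saline replicate 2 it came to 9 higher and 99 lower. It was 254 without untreated replicate 1, and 0 with the 2 groups fitted alone, where 1371 genes had an unadjusted p under 0.05. Mesothelial genes were lower in saline lungs in 8 of 11 cases (median −1.36), and in 7 of 11 (median −1.20) without untreated replicate 3. Bnc1 was at 3.58, 2.02, 2.37, 3.90 and 5.07 CPM in saline lungs against 9.96, 10.7, 12.9 and 14.6 CPM in untreated lungs, and the bleomycin lungs, at 5.12 to 10.9 CPM, lay above every saline lung and overlapped the untreated ones. In this comparison 1 of 16 monocyte-derived macrophage genes was lower (median −0.40) and 1 of 17 lipid-laden macrophage genes (median −0.22), with none higher. Without untreated replicate 3 neither list had a call (medians −0.17 and −0.06). The monocyte-derived count was 3 without untreated replicate 1 and 2 without untreated replicate 2 or 4, and the lipid-laden count 2 without untreated replicate 2.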

How the data were processed

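The values are counts of reads per gene in lungs of the series, deposited by the authors as a table of whole numbers for 48794 Ensembl genes. Per the labels' protocols, frozen lung (20 mg) was lysed in Qiazol for RNA and libraries were made with a poly-A kit. Per the submitters' processing notes the tools were bcl2fastq 2.20.0.422, STAR 2.5.2 or 2.5.2b, featureCounts 1.5.1, RSEM 1.3.0 and FastQC 0.11.5, with the builds hg38, GRCh38 and GRCm38. Their roles, the annotation release, the use of strand and the handling of reads that map to several places are not given in the sources used here, so a gene and its antisense partner cannot be told apart. GENCODE M21 gave a name and a position (GRCm38) to 18348 of the tested genes. Promoter windows came from RefSeq (GRCm38.p6), whose table held 14 of the 20 lysosome-list genes.

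Genes passing edgeR 4.0.16 filterByExpr (minimum count 10, minimum total 15) were kept, 18396 in all, and libraries were scaled by TMM. The quasi-likelihood F test (R 4.3.3, robust) was fitted on all 137 libraries with 1 coefficient for each of the 26 groups, leaving 111 residual degrees of freedom. The standard error was obtained as the size of the log2 fold change over the root of F, and so draws on the spread of a gene over all 137 libraries. The common biological coefficient of variation was 16.0%. CPM used the TMM sizes, and log2 CPM a prior count of 2. The scripts were tested on simulated counts. No pair of libraries within the young bleomycin group or within the young saline group of day 56 held identical values. Other pairs were not checked.

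The 61 gene lists, their members and the rule for named genes were chosen with earlier results of these data known, and no list was tested as a set. The rule took a panel of 24 genes, the 12 called genes that rose most and the 10 that fell most without overlap (mean log2 CPM over 1), up to 4 called members per list, the 4 largest differences each way per effect difference that were also called at day 56, and the members of lists drawn gene by gene. Other genes named were chosen after their values were seen.

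The alternatives were RLE scaling, no filter on low counts, DESeq2 1.42.0, the groups of a contrast fitted alone, all young saline lungs as the control, a clock score or a handling score as covariate, and each lung left out in turn. Leaving out untreated lungs was chosen after seeing the data. The labels give no batch or date.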

Additional observations from a re-analysis of the deposited data

Results flagged for a closer look

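A gap test (Dixon's ratio of the gap to the group's range) was applied to both day 56 groups for each gene named in the text. It was exceeded in 12 of 264 groups, and chance exceeds it in about 1 in 20, or 13.2 of 264, so the number is no more than chance gives. In 4 of these bleomycin replicate 1, the mildest lung, lay below the other 3 bleomycin lungs. Acp5 was at 28.2 CPM there (log2 CPM 4.82) against 62.7 to 68.3 CPM in the others. Ctsd was at 664 CPM (9.38) against 1323 to 1521 CPM, and Kng2 at 1.001 CPM (0.13) against 4.99 to 6.31 CPM. Lyz2 was at 7683 CPM (12.91) against 11281 to 11764 CPM. In the same group Csf3r was high in replicate 3, at 75.1 CPM (6.23) against 42.5 to 46.6 CPM. Igkv8-34 was at 3.51 CPM in replicate 4 (1.85) and had no read in the other 3, and Ighe at 0.0462 CPM in replicate 3 (−2.83) with none in the others.

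Among saline lungs Col1a1 was at 712 CPM in replicate 2 (9.48), against 442 to 479 CPM in the other 4. Replicate 1 was high in Lamp1, at 733 CPM (9.52) against 704 to 709.8 CPM, and in Cxcr1, at 2.97 CPM (1.62) against 2.08 to 2.29 CPM. Itgax was low in replicate 3, at 70.9 CPM (6.15) against 80.04 to 83.7 CPM, and Spp1 in replicate 5, at 124.8 CPM (6.96) against 141.98 to 148.2 CPM.

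The bleomycin effect differed between day 56 and day 14 by its own test in 19 of these genes. It was lower at day 56 in Rasl10b (−2.61), Cldn4 (−2.58), Atg9b (−2.18), Col1a1 (−2.02), C1qb (−1.88), Sfrp1 (−1.85) and C3ar1 (−1.55), which kept that call when any 1 of the 9 lungs was left out. It was also lower in Mki67 (−2.01), Tnc (−2.004), Fn1 (−1.66), Trem2 (−1.26) and Wnt11 (−0.72). It was higher at day 56 in Pla2g2d (1.65), Proz (1.51), Apol7c (1.22), Cpne5 (1.16), Igfbp3 (1.08), Tmem108 (0.89) and Fasn (0.65). Outside the first 7 genes the call was lost in 1 to 8 of the 9 leave-1-out fits. The differences in those fits ran from −1.90 to −2.07 in Mki67, −1.05 to −1.42 in Trem2, 0.68 to 1.34 in Cpne5, and 1.49 to 2.003 in Pla2g2d.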

How the results depend on the processing

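The count of 2982 genes was 2974 with RLE scaling, 2188 with no filter, 3223 with DESeq2, 3390 with the 2 groups fitted alone, 4101 against all young saline lungs, 2943 with the clock covariate and 2279 with the handling covariate. Leaving out 1 lung gave 1724 to 3075 genes. RLE scaling split the calls into 1541 higher and 1433 lower. The difference of day 56 from day 14 gave 431 genes with no filter, where more genes are tested, and 409 to 1043 with 1 lung left out, against 830. The difference from day 42 gave 4 genes in DESeq2 and 0 in each fit with 1 lung left out. Young minus old gave 3 in DESeq2, 3 with the groups alone and 0 to 2 with 1 lung left out. Saline against untreated gave 0 with the groups alone and 50 to 254 with 1 lung left out. The cause of these shifts was not tested. Of 240 named genes 2 reversed. Btg2 was at 0.038 with the handling covariate, against −0.68. Igkv8-34, whose day 56 reads were nearly all in bleomycin replicate 4, was at 4.11 and ran from −3.07 without that lung to 4.83 without saline replicate 2. Over gene and alternative, 3488 verdicts were unchanged, 307 lost and 35 gained a call, and 65 called genes lost their call in at least 1 leave-1-out fit.

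No paired analysis was possible because no number in the labels is shared by lungs of different groups. With 4 lungs against 5 and a median standard error of 0.14 on the log2 scale, small changes were not detectable, and a gene that was not called is not shown to be equal. The lowest counts came without bleomycin replicate 3 (1724) and replicate 4 (1818). Against all young saline lungs 0 mesothelial genes were called higher and 2 immediate early genes lower.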

Other observations

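A few genes with unusual patterns were chosen after their values were seen. Zbtb16, a transcription factor that glucocorticoids induce, was at 29.7, 144.4, 33.3 and 9.11 CPM in bleomycin lungs against 13.2, 13.2, 14.9, 12.5 and 12.3 CPM in saline lungs. Its rise of 2.04 ± 0.57 was 0.87 and not called without bleomycin replicate 2. Cartilage genes were uneven among the lungs: Col2a1 was at 0.222, 0.564, 0.185 and 2.19 CPM in bleomycin lungs against 3.64, 0.0674, 1.52, 0.998 and 0.498 CPM in saline lungs, and Acan at 0.334, 1.44, 0.323 and 3.90 CPM against 5.49, 0.0674, 3.60, 3.14 and 1.45 CPM. In untreated lungs neither exceeded 0.135 CPM.

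The untreated lung that stood apart differed in more than macrophage genes. Untreated replicate 3 held the keratin Krt14 at 35.6 CPM, against 0.208 to 0.908 CPM in the other 3, and the tight-junction gene Cldn4 at 34.8 CPM against 3.77 to 5.06 CPM. The bleomycin lungs of day 56 held 0.334 to 1.10 CPM of Krt14 and 4.23 to 8.18 CPM of Cldn4.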
